A study of Mus musculus with 2 samples.

Results

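Cycling stroma of the mouse uterus on gestational day 4 was the 213 stromal cells, of 4747 in all, in which at least 4 of 8 genes of mitosis and proliferation were detected (Prc1, Hmmr, Cenpf, Aspm, Tpx2, Ccnb1, Top2a and Mki67, each with at least 1 unique molecular identifier, UMI). The Mettl14 d/d library gave 37 of its 1258 stromal cells and the Mettl14 f/f library 176 of its 3489. A stromal cell had UMIs of at least 3 of 6 stromal genes (Pdgfra, Dcn, Hand2, Hoxa10, Hoxa11, Islr) and no UMI of Epcam, Pecam1, Ptprc, Myh11 or Rgs5, which mark epithelium, endothelium, leukocytes, smooth muscle and mural cells. Among barcodes that passed the filters on UMIs, genes and mitochondrial share there were 6325 in the d/d library and 7610 in the f/f library. The cycling cells were set beside the 1135 d/d and 2629 f/f stromal cells in which none of the 8 genes was detected, called non-cycling here.

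Both libraries were 10x 3' single-cell RNA libraries of whole uterus taken on gestational day 4, when the mouse endometrium becomes receptive to the embryo. One carried the Mettl14 d/d genotype and the other the Mettl14 f/f genotype, where f/f names alleles with recombination sites on either side and d/d alleles from which the stretch between them was removed. Mettl14 encodes a subunit of the RNA methyltransferase complex that writes N6-methyladenosine on messenger RNA. The labels give neither the Cre line, nor the exons removed, nor how many animals went into a library. The d/d library held 44745031 UMIs over 6661 barcodes and the f/f library 55080123 over 8164. Both tissues were minced and digested with collagenase, dispase and DNase, and red cells were lysed. With 1 library per genotype there is no replicate check: every interval below covers counting error only, at 95%, and no difference between the genotypes was tested.

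The deleted gene itself was sparse. Mettl14 had 3 UMIs in 3 of 37 d/d cycling cells, 5.6 UMIs per 1000000 (CPM), with an interval of 1.16 to 16.4, and 40 UMIs in 34 of 176 f/f cycling cells, 22.8 CPM (16.3 to 31.0). Non-cycling stroma had 22 UMIs, 2.60 CPM, in d/d and 250 UMIs, 14.6 CPM, in f/f. A 3' tag checks a deletion only if the exons removed hold the tag or end the transcript, and these exons are not given.

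In the receptive mouse uterus, progesterone ends proliferation of the luminal epithelium and stromal fibroblasts divide under progesterone and estrogen, before those around the embryo differentiate into decidual cells. A dividing cell first expresses cyclins and E2F-driven genes that copy its DNA, together with the histones that package it, and later the kinases, kinetochore proteins and kinesins of mitosis. The 8 genes used to find the cells belong mostly to the later program: Prc1 bundles microtubules of the spindle midzone, Hmmr and Tpx2 act at spindle microtubules, Aspm at spindle poles, Cenpf at kinetochores, Ccnb1 is the cyclin of the mitotic kinase Cdk1, Top2a untangles DNA, and Mki67 coats mitotic chromosomes.

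Genes of late G2 and mitosis often share short promoter elements, the cell cycle homology region with the letters TTTGAA and CCAAT boxes, so the windows of 5 of the genes used to find the cells, and of Cdc20, are shown. Each runs from 250 bases before to 50 bases after the transcription start in RefSeq's annotation of GRCm38.p6, 5′ to 3′ on the gene's own strand, and capitals mark TTTGAA and CCAAT on either strand (TTCAAA and ATTGG where they lie on the other one). Prc1 lies at chr7:80294201-80294500 (plus strand), Hmmr at chr11:40733388-40733687 (minus), Cenpf at chr1:189688037-189688336 (minus), Aspm at chr1:139454523-139454822 (plus), Ccnb1 at chr13:100786437-100786736 (minus) and Cdc20, the activator of the anaphase promoting complex, at chr4:118437294-118437593 (minus).
Prc1: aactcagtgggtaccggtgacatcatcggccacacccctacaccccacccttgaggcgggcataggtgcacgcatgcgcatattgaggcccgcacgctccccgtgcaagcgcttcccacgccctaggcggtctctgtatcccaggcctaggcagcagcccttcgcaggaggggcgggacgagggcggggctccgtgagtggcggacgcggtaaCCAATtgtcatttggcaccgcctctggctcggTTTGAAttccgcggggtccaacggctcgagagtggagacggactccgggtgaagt
Hmmr: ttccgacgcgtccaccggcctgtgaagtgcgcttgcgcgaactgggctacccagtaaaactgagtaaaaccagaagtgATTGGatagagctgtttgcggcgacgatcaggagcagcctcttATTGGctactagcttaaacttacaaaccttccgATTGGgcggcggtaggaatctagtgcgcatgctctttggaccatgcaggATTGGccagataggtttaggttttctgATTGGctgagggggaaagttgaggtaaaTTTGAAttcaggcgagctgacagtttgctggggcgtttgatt
Cenpf: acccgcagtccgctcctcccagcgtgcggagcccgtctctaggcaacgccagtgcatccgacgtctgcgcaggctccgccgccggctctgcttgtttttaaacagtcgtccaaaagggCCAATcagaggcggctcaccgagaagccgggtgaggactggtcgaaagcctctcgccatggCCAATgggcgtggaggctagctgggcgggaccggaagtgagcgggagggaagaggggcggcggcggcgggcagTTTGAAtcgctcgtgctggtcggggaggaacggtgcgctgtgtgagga
Aspm: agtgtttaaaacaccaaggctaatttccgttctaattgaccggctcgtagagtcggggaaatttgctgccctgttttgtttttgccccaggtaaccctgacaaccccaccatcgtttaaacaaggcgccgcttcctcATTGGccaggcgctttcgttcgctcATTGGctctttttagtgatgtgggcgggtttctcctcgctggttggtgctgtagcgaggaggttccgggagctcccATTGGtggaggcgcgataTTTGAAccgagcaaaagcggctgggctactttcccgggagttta
Ccnb1: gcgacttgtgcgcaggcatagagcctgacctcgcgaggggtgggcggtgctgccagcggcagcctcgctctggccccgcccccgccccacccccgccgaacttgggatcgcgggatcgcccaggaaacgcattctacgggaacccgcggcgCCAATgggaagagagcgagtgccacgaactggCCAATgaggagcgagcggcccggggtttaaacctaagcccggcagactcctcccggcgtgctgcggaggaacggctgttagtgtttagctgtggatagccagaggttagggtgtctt
Cdc20: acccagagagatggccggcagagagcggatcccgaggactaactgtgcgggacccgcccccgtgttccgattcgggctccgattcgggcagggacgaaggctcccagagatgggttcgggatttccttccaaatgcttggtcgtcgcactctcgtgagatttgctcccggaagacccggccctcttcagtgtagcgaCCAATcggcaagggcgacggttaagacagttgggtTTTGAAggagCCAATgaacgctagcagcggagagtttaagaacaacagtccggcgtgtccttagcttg
The letters TTTGAA start at -5 in Prc1, +9 in Hmmr, +3 in Cenpf, +7 in Aspm and -18 in Cdc20, counted from the transcription start at +1, and neither orientation of them is in the window of Ccnb1, which has CCAAT at -99 and -67. Of the 8 genes, 7 had a window, Tpx2 being the one without, and TTTGAA was found in 6 of those 7 and CCAAT in 7. Over all 27025 genes with a window, 20.2% held TTTGAA, 41.1% held CCAAT and 7.97% held both. The spindle list held TTTGAA in 21 of 27 windows and the kinetochore list in 11 of 20, against 4 of 32 windows of the DNA replication list and 1 of 14 of the nucleotide supply list. It was also in 7 of 15 windows of the mitotic kinases, 8 of 14 of condensation, 6 of 15 of the G1 and G1-S list and 4 of 13 of the anaphase promoting complex list. The 2 motifs share no letters that would let one contain the other, and a match is a description of the window, not a shown binding site.

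Cycling cells made up 2.94% of d/d stroma (interval 2.08% to 4.03%) and 5.04% of f/f stroma (4.34% to 5.82%), a ratio of 0.583 (0.411 to 0.826). Cycling cells carried more RNA than other stroma, and the d/d ones carried most: their median was 15672 UMIs in d/d and 9669 in f/f, against 6880 and 6311 in non-cycling stroma. Deeper cells pass a detection rule more easily, so the rule was also applied after every cell was thinned to 3000 UMIs, which left out shallower cells. It then found 17 of 1180 d/d cells (1.44%) and 116 of 3460 f/f cells (3.35%), a ratio of 0.430 (0.259 to 0.712). At 5000 UMIs the ratio was 0.487 (0.318 to 0.745). A cell type set outside the stroma rule gave the background. Smooth muscle cells had median depths of 4625 UMIs in d/d and 3993 in f/f, against 7370.5 and 6520 in stroma. Of them, 2 of 925 in d/d (0.216%) and 4 of 321 in f/f (1.25%) had at least 4 of the 8 genes, a ratio of 0.174 (0.032 to 0.943). Among all barcodes past the filters, 2.51% in d/d and 7.33% in f/f did, a ratio of 0.343 (0.288 to 0.408). The d/d share was thus also lower in smooth muscle, from these few cells, and over all barcodes. The latter include the stroma, and their mix of cell types was not made equal between libraries. Whether the lower share was particular to stroma was not tested.

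The rule on other cell types' genes weighs on this share. Without it, 64 d/d and 379 f/f cells would have counted as cycling stroma, 2.32% and 6.86% of stroma so defined, a ratio of 0.338 (0.260 to 0.439) against 0.583 with the rule, and 27 and 203 of them were removed for at least 1 UMI of Epcam, Pecam1, Ptprc, Myh11 or Rgs5, 8 and 56 of those for a single UMI. Allowing 1 such UMI in all left the shares at 3.01% in d/d and 5.17% in f/f. Just inside the threshold, 8 d/d and 33 f/f cells had exactly 4 genes detected, at median depths of 9957 and 8149 UMIs. Just outside it, 8 d/d and 43 f/f cells had 3, at 12211 and 6507 UMIs. A further 67 d/d and 520 f/f cells showed 1 gene only, 5.33% and 14.9% of stroma. With 1 or more genes there were 9.78% of d/d and 24.6% of f/f stroma, beside 5.19% and 12.1% of the shallower smooth muscle cells.

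**Figure D1:**
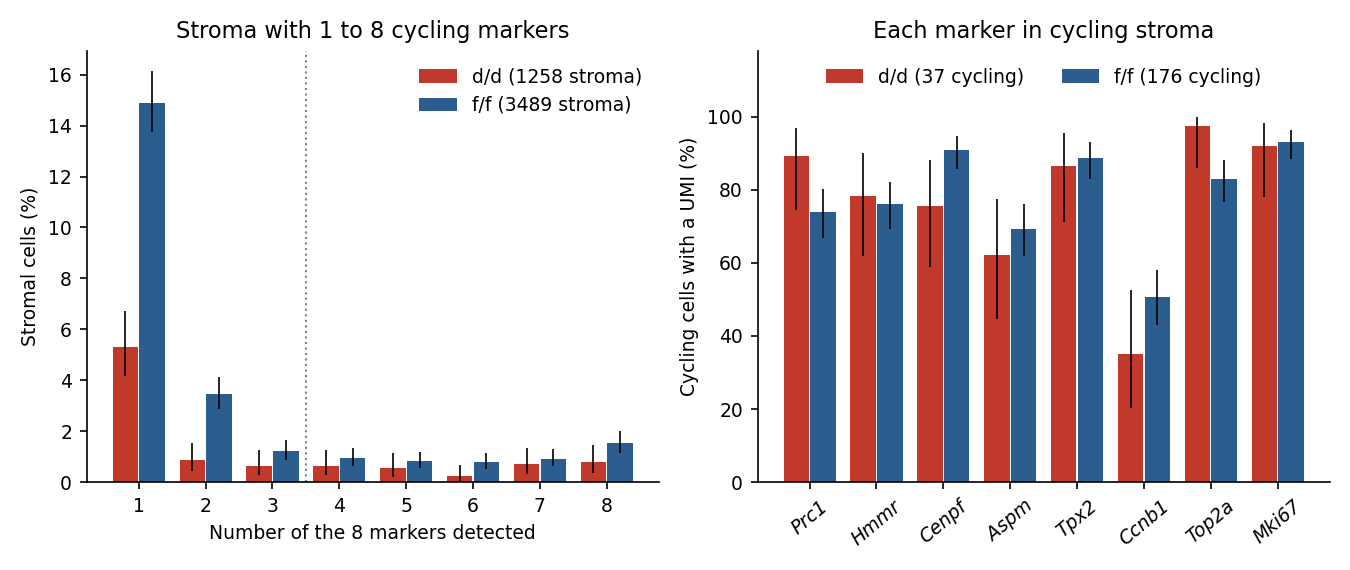
Left, percent of stromal cells with 1 to 8 of the 8 genes detected, d/d left of f/f, the dotted line marking the threshold of 4; right, percent of cycling cells in which each gene was detected (37 d/d and 176 f/f cells; bars, exact binomial intervals). The d/d library has the smaller share in every class from 1 to 8, and Ccnb1 is the gene least often detected among cycling cells of both libraries.

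Within the cycling cells the 8 genes varied. All 8 were detected in 10 of 37 d/d cells (27.0%) and in 54 of 176 f/f cells (30.7%). Top2a was seen in 97.3% of d/d and 83% of f/f cycling cells and Prc1 in 89.2% and 73.9%, while Cenpf was seen in 75.7% and 90.9% and Ccnb1 in 35.1% and 50.6%. By level, Cenpf stood at 253.8 CPM in d/d and 563.2 in f/f cycling cells, a log2 ratio of -1.15 (-1.42 to -0.89). Ccnb1 stood at 63.5 and 166.1 CPM, a log2 ratio of -1.39 (-1.95 to -0.87). Top2a, at 574.9 and 690 CPM, and Mki67, at 298.6 and 402.7 CPM, differed by less than 1.5-fold. These genes chose the cells, so their levels are a description and nothing is read from their order.

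The cells matched their stromal label. All 14 stromal genes that the rule did not use (collagens I, III and VI, Lum, Vim, Nr2f2, Twist2 and others) were measured in cycling cells, with a summed level of 16217 CPM in d/d and 11513 CPM in f/f cycling cells, against 24176 and 14378 CPM in non-cycling cells of d/d and f/f. Markers of other cell types were present at differing levels. The 10 epithelial genes summed to 9.33 CPM in d/d and 14.8 CPM in f/f cycling cells, with 6 and 5 of them at 0, against 14.2 and 25.9 CPM in d/d and f/f non-cycling cells. The 10 NK and T cell genes summed to 3.73 and 3.98 CPM, with 8 and 6 at 0, and the 3 mesothelial genes were at 0 in cycling cells of both libraries. The 7 smooth muscle genes summed to 285.6 CPM in d/d and 419.2 CPM in f/f cycling cells, against 443.7 and 505.6 CPM in non-cycling cells. The 9 blood endothelial genes summed to 184.8 CPM in d/d and 192.3 CPM in f/f cycling cells, with 2 and 1 at 0, against 173.3 and 205.9 CPM in non-cycling cells. The part of these RNAs in the results was not tested. The 9 macrophage genes summed to 97.1 CPM in d/d cycling cells and 40.4 CPM in f/f cycling cells, against 38.8 and 47.8 CPM in the non-cycling cells. In d/d, 74% of the UMIs of Lyz2, the lysozyme that leads that list, came from 1 cycling cell.

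The steroid receptors of the receptive uterus stayed within 1.5-fold of non-cycling cells in both libraries. Pgr, the progesterone receptor, had 151.2 CPM in d/d and 201.9 CPM in f/f cycling cells, against 208.6 and 268.2 CPM in the non-cycling cells, log2 ratios of -0.46 within d/d and -0.41 within f/f. Esr1, the estrogen receptor, had 210.9 and 197.4 CPM in cycling cells, against 296.9 and 263 CPM. Hand2, a progesterone target that restrains growth factor signalling to the epithelium, had 117.6 against 124.7 CPM in d/d and 145.1 against 140.2 CPM in f/f. Hoxa10 had 461 CPM in d/d and 513.7 CPM in f/f cycling cells, and Hoxa11 95.2 and 93.3 CPM. Hand2, Hoxa10 and Hoxa11 belong to the stroma rule that chose both groups, so their likeness between groups is partly fixed by it.

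A gene was counted as measured when the 2 groups compared averaged at least 20 CPM, and as higher or lower when it differed by at least 1.5-fold with an interval that left out equality. Against non-cycling stroma of the same library, 908 of 6112 measured genes were higher in d/d cycling cells (14.9%) and 664 were lower (10.9%). In f/f, 693 of 6371 were higher (10.9%) and 422 were lower (6.62%). Taking mitochondrial and ribosomal protein genes out of the totals raised the measured f/f genes to 7691 and turned the split to 729 higher and 818 lower. Over the 6371 genes alone it gave 587 higher and 576 lower. The rule itself set this contrast, so the counts below describe the cells and are read against nothing. A gene at or near 0 in non-cycling cells passed the level filter only through cycling cells and so had to differ. Of the 5571 genes measured in both libraries, the 8 left out, 452 were higher in both, which is 55.7% of the d/d and 76.0% of the f/f list, and 173 were lower in both, 28.9% and 52.4%.

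Of 22 listed kinases and cyclins of mitosis, 16 were measured in d/d and 17 in f/f, and each of those was higher in cycling cells. Cdk1, the kinase that drives entry into mitosis, had 225.8 CPM in d/d cycling and 1.66 CPM in d/d non-cycling cells, and 147.3 and 4.04 CPM in f/f. Ccna2, its partner cyclin from S phase on, had 121.3 against 0.947 CPM in d/d and 200.2 against 2.58 CPM in f/f. Aurkb, the kinase that corrects chromosome attachment, had 149.3 against 0.355 CPM in d/d and 119.5 against 1.58 CPM in f/f. The 24 kinetochore and centromere genes gave 19 measured in each library, higher in every case, and the 29 spindle, kinesin and cytokinesis genes gave 24 in d/d and 27 in f/f, likewise. Birc5, the survivin subunit of the chromosomal passenger complex, had 500.2 CPM in 36 of 37 d/d cycling cells against 2.37 CPM in non-cycling cells, and 311.2 against 4.45 CPM in f/f. Pbk, a mitotic kinase, had 66 UMIs in d/d cycling cells and 1 UMI among all 1135 d/d non-cycling cells.

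Machinery that acts after metaphase was higher only in part. Of 14 listed genes of the anaphase promoting complex and mitotic exit, 7 were higher in d/d and 8 in f/f. Its activator Cdc20 had 87.7 against 0.592 CPM in d/d and 171.8 against 2.63 CPM in f/f, and its ubiquitin-conjugating enzyme Ube2c had 419.9 against 1.89 CPM in d/d and 544.4 against 9.30 CPM in f/f. Among the core subunits, Anapc11 was higher in cycling cells of both libraries and Cdc27 in f/f, while Cdc16 and Cdc23 were called in neither. Cdc16 had 29.9 CPM in d/d cycling and 37.7 CPM in d/d non-cycling cells, and 71.1 and 62.8 CPM in f/f. Chromatin genes had the highest sum of the cell cycle lists: Hmgb2, a DNA-bending protein, had 2912 against 192 CPM in d/d and 2168 against 119.7 CPM in f/f, and was seen in every cycling cell. Stmn1, which takes microtubules apart, had 1301 against 81.3 CPM in d/d and 1280 against 124.5 CPM in f/f. Of 19 genes of condensation and chromatin, all 18 measured in d/d and all 19 in f/f were higher.

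Genes that copy DNA differed by smaller ratios than those of mitosis, and non-cycling stroma carried many of them at low levels. The 8 genes of the rule are mostly mitotic, so the rule fixes part of this gap and nothing is read from it. Of 41 listed DNA replication genes, 29 were measured in d/d and 30 in f/f, each of them higher in cycling cells, with median log2 ratios of 2.58 and 2.13, beside 6.30 and 6.08 for the mitotic kinases. Tk1, thymidine kinase, had 248.2 against 0.592 CPM in d/d and 106.4 against 1.35 CPM in f/f. Pclaf, a partner of the replication clamp Pcna, had 507.7 against 0.473 CPM in d/d and 541 against 8.43 CPM in f/f. Of 15 genes of nucleotide supply, 13 were higher in d/d and 11 in f/f.

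Replication-coupled histones are made in S phase from clustered genes with near-identical copies, and most of their transcripts lack a poly(A) tail, so their levels in a 3' library are uncertain. Of 12 listed, 9 were higher in d/d and 6 in f/f. Hist1h2ae had 1566 CPM in d/d cycling and 4.85 CPM in d/d non-cycling cells, and 341.3 and 11.5 CPM in f/f.

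Among the cyclins that carry a cell through G1, the direction depended on the gene. Ccnd2, the D-type cyclin most abundant in this stroma, was lower in cycling cells: it had 54.1 CPM in d/d cycling cells against 164.9 CPM in non-cycling ones, a log2 ratio of -1.61 (-2.19 to -1.08), and 55.7 against 175.6 CPM in f/f, -1.65. It kept that ratio in both libraries when only non-cycling cells within the quartiles of cycling depth were used, at -1.70 in d/d and -1.66 in f/f. Ccnd1 had 14.9 CPM against 7.22 CPM in d/d, under the level limit, and 20.5 against 38.3 CPM in f/f, where it was lower. Ccnd3 was level in both. Ccne2, the E-type cyclin of S phase entry, was higher, with 41.1 against 2.96 CPM in d/d and 55.2 against 3.75 CPM in f/f. Of the inhibitors that hold CDKs in check, Cdkn2c was higher in cycling cells of both libraries, at 93.3 against 22.2 CPM in d/d and 71.1 against 6.20 CPM in f/f, and Cdkn1b stood at 61.6 against 61.5 CPM in d/d and 57.5 against 53.7 CPM in f/f.

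Several genes of the resting fibroblast were lower in cycling cells, and depth moved with their counts. Of 27 extracellular matrix genes, 26 were measured in each library and 15 were lower in d/d against 1, Lum, in f/f, while all 14 stromal identity genes were measured and 8 were lower in d/d against 1 in f/f. Col1a2 had 2587 CPM in d/d cycling and 4484 CPM in d/d non-cycling cells, and 1771 and 2418 CPM in f/f. Igfbp3, a binding protein that holds IGF outside the cell, had 16.8 CPM from 9 UMIs in d/d cycling cells against 397.9 CPM in non-cycling ones, and 89.3 against 247.8 CPM in f/f. Gsn, the actin-severing gelsolin, had 190.4 against 1144 CPM in d/d and 354.4 against 524.7 CPM in f/f. Against the 191 d/d non-cycling cells within the quartiles of cycling depth, 1 matrix gene was lower and 1 higher, the log2 ratio of Igfbp3 was -0.98 (-2.16 to 0.01) and that of Gsn -0.43 (-0.74 to -0.13). A stromal subset marked by Clec3b, Adh1, Inmt and Abca8a moved with them: 21.6% of d/d cycling and 43.0% of d/d non-cycling cells had a UMI of any of the 4, against 11.9% and 17.2% in f/f. With such cells left out, 10 matrix genes were lower in d/d, and Igfbp3 stood at -1.90 (-3.04 to -0.96). Clec3b and Adh1 had 0 UMIs in d/d cycling cells. Cxcl12, a chemokine of stromal fibroblasts, had 37.3 against 249.2 CPM in d/d and 121.7 against 180.2 CPM in f/f. Gpx3, a secreted glutathione peroxidase, had 35.5 against 234.2 CPM in d/d and 95 against 222.5 CPM in f/f, lower in both. The part of depth and of this subset in the d/d counts was not tested further.

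Lower genes shared by both libraries included Ogn, the matrix proteoglycan osteoglycin, at 59.7 against 266.2 CPM in d/d and 18.8 against 80.6 CPM in f/f, and it stayed lower in both against non-cycling cells within the quartiles of cycling depth, with log2 ratios of -1.95 and -1.64. Igfbp5, another IGF binding protein, had 136.2 against 410.7 CPM in d/d and 196.3 against 449.4 CPM in f/f. Igf1 itself had 909 against 1197 CPM in d/d, within 1.5-fold, and 1337 against 2174 CPM in f/f, a log2 ratio of -0.70 (-0.76 to -0.64). Htra3, a secreted serine protease, had 28 against 166.2 CPM in d/d and 31.3 against 74.8 CPM in f/f. Nfil3, a basic leucine zipper repressor, had 16.8 against 40.8 CPM in d/d and 13.7 against 40.7 CPM in f/f. Ptges3, the cochaperone of steroid receptors also known as p23, went the other way, at 382.6 against 198.4 CPM in d/d and 360.1 against 205.3 CPM in f/f. Rbm15, an adaptor of the methyltransferase complex, was also higher in both, at 132.5 against 63.4 CPM in d/d and 65.4 against 35.4 CPM in f/f.

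**Figure D2:**
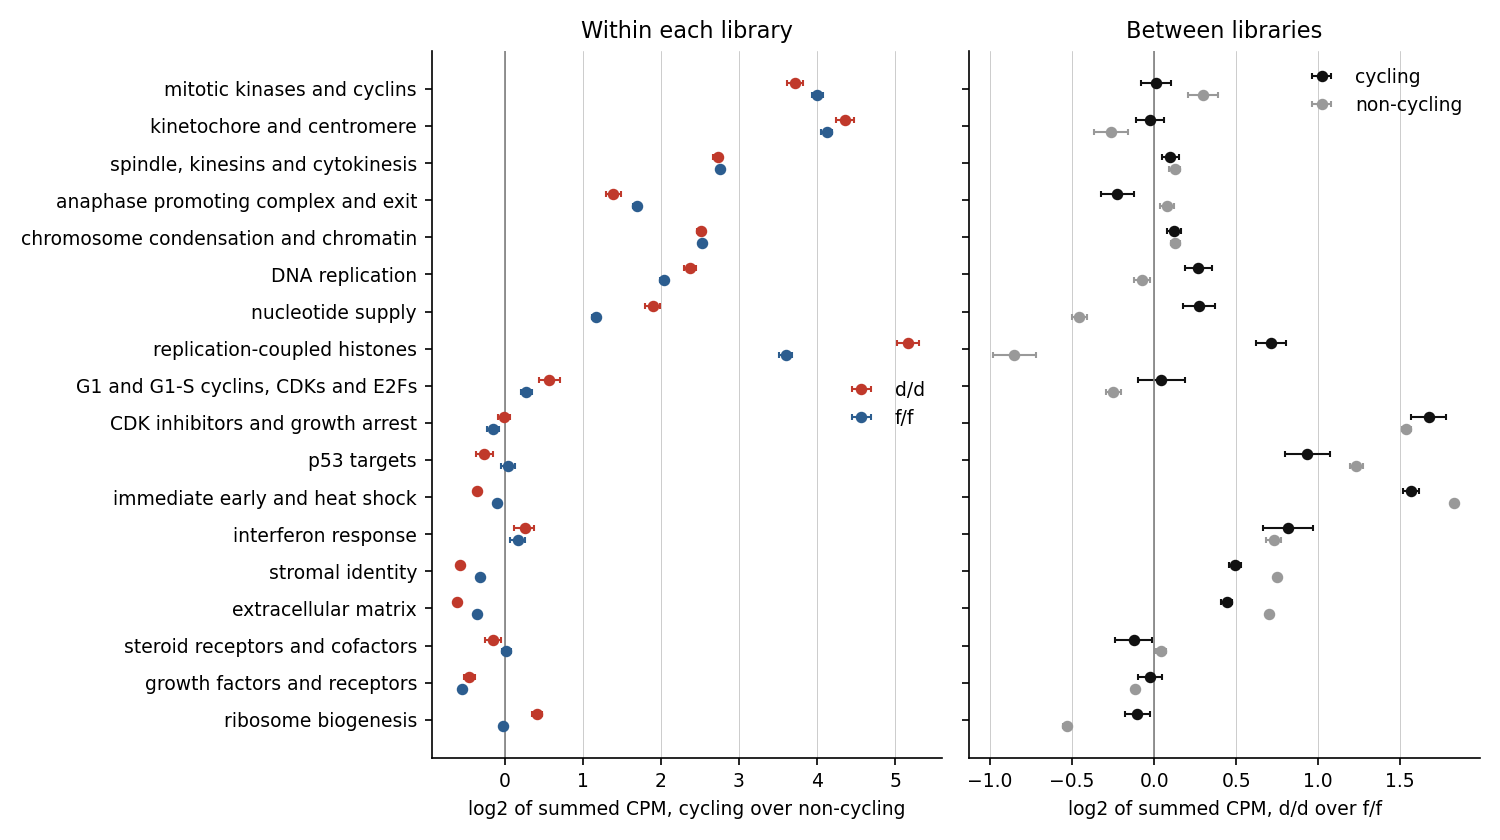
Log2 ratio of summed CPM for 18 gene lists: left, cycling over non-cycling stroma within each library; right, d/d over f/f in cycling and in non-cycling stroma (bars, exact intervals for counting error). Mitotic, replication and histone lists lie far to the right in both libraries. The immediate early, CDK inhibitor and growth arrest, and p53 target lists lie above f/f in cycling and non-cycling d/d cells alike.

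How far the programs had run differed from cell to cell, and grouping stroma by the number of the 8 genes detected traced it. In f/f, DNA replication genes summed to 642 CPM with 0 detected, 1329 with 2 to 3, 3341 with 4 to 5, 3243 with 6 to 7 and 1495 CPM (1402 to 1592) with all 8. In d/d the same steps gave 611, 2447, 3874, 3218 and 2480 CPM (2255 to 2722). Replication genes thus peaked before all 8 genes were present, and cells with all 8 had fewer of them, in f/f by more than in d/d. Kinetochore genes were higher at each step, reaching 3324 CPM in d/d and 3649 CPM in f/f with all 8. Cells with 2 to 3 of the 8, which lie outside the cycling group, already stood above 0-of-8 cells for each of the 5 lists plotted. Ccne2 followed replication, at 68.7 CPM with 4 to 5 detected and 22.4 CPM with 8 in d/d, and 114.7 and 1.54 CPM in f/f. The depth of the cells climbed along the same steps, from medians of 6880 to 18491 UMIs in d/d and 6311 to 11342.5 in f/f, and the rule itself fixes part of the order.

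**Figure D3:**
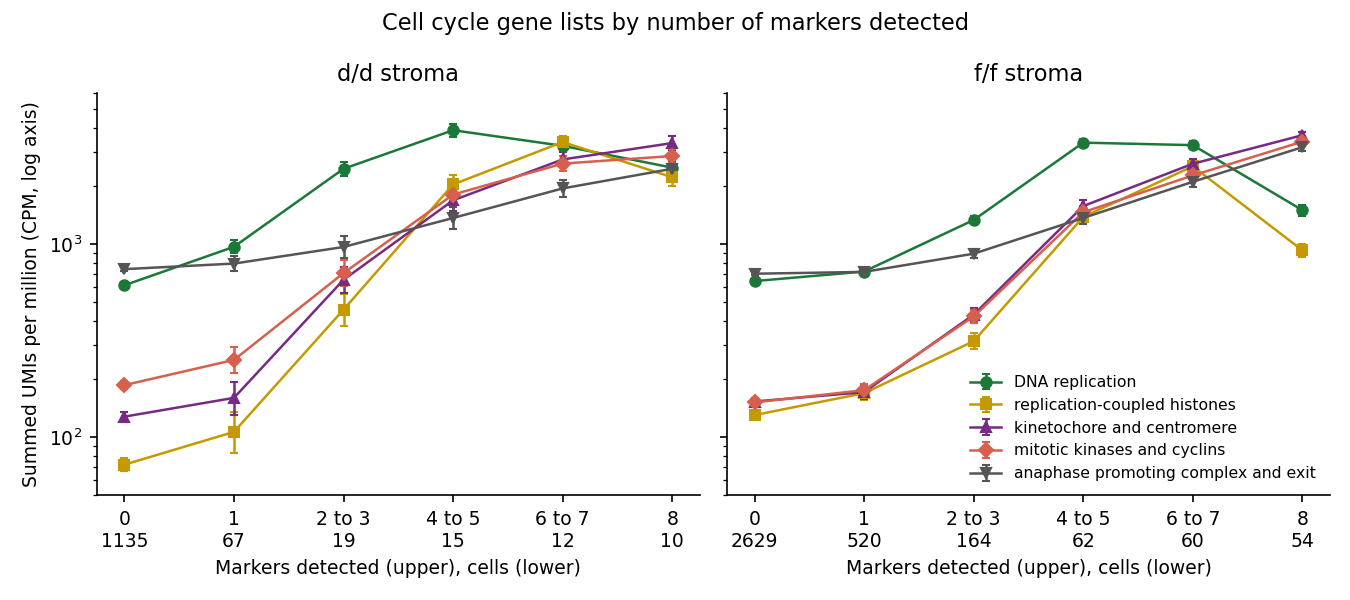
Summed CPM (log axis) of 5 gene lists in stromal cells grouped by how many of the 8 genes were detected, d/d left and f/f right; the lower row of labels gives the cells per group and bars are exact Poisson intervals. DNA replication is highest at 4 to 5 genes in d/d and nearly level between 4 to 5 and 6 to 7 genes in f/f. At 8 genes it stands at 2480 CPM in d/d and 1495 CPM in f/f, while kinetochore genes are highest at 8.

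To place single cells, each was thinned to 3000 UMIs, which kept 36 d/d and 170 f/f cycling cells. Their median was 9 UMIs of the DNA replication list in d/d and 5 in f/f, against 1 in non-cycling cells of both libraries, and 15 and 14.5 UMIs of the mitotic lists. The histone median was 7 UMIs in d/d and 1 in f/f. Mitotic UMIs outnumbered replication UMIs in 23 of 36 d/d cells (63.9%, 46.2% to 79.2%) and in 126 of 170 f/f cells (74.1%, 66.9% to 80.5%). Most f/f cycling cells formed a band low in replication genes with mitotic genes present, and fewer d/d cells lay there: 9 of 36 d/d cells (25%, 12.1% to 42.2%) and 107 of 170 f/f cells (62.9%, 55.2% to 70.2%) had at most 6 replication UMIs, a limit chosen after the values were seen. Within 1 UMI of that limit lay 4 d/d and 26 f/f cells. Below the limit the histone median was 0 in d/d and 1 in f/f, and above it 8 and 9. Among the cells that still had 4 of the 8 genes once thinned, the counts were 6 of 15 in d/d (40%, 16.3% to 67.7%) and 76 of 99 in f/f (76.8%, 67.2% to 84.7%), so the intervals meet there. Across cells, replication and mitotic UMIs had a Pearson correlation of -0.37 in the 36 d/d and -0.10 in the 170 f/f cells, points that share 1 fixed total each.

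**Figure D4:**
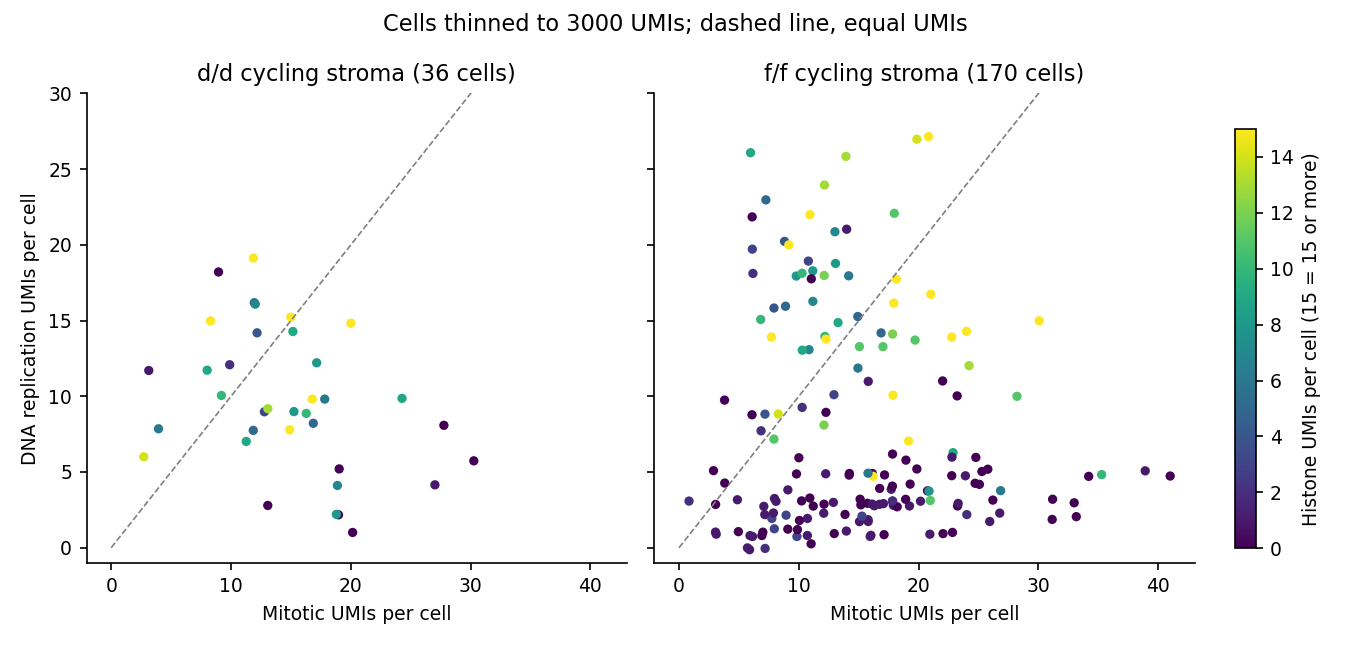
UMIs of the mitotic lists (x) and of the DNA replication list (y) in each cycling cell thinned to 3000 UMIs, coloured by histone UMIs, d/d left and f/f right; points are shifted slightly so that they do not overlap and the dashed line marks equal UMIs. In f/f, 107 of 170 cells lie at 6 replication UMIs or fewer, mostly with few histone UMIs, against 9 of 36 in d/d.

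Between the genotypes, the DNA replication, nucleotide supply and histone lists each summed higher in d/d cycling cells. Most members were not called in the first 2 lists: 31 of 38 replication and 11 of 15 nucleotide supply genes. The median log2 ratio of the replication list was 0.28, and it ran from -0.24 to 0.40 over the alternatives. With cells chosen at full depth, d/d cycling cells also carried less of several late mitotic genes. Of 6241 genes measured, 726 were higher in d/d cycling cells (11.6%) and 883 lower (14.1%), and the median log2 ratio over all of them was -0.10. This split depends on the scaling and on how cells were chosen: TMM turned it to 831 higher and 729 lower, choosing cells after thinning to 636 and 554, and equal totals per cell gave 711 and 1155. In non-cycling stroma 734 of 6156 were higher (11.9%) and 894 lower (14.5%), shares close to those in cycling cells. The DNA replication list summed to 3167 CPM in d/d and 2628 CPM in f/f cycling cells, a log2 ratio of 0.27 (0.19 to 0.35), against -0.07 (-0.12 to -0.02) in non-cycling stroma. Of its 38 measured members 7 were higher (Gins2, Pcna, Rfc5, Fen1, Orc6, Tipin and Gmnn) and 0 lower, beside the 11.6% of all genes. Gins2, a subunit of the replicative helicase, had 102.7 and 35.8 CPM, a log2 ratio of 1.52 (0.97 to 2.06). Fen1, the nuclease that trims Okazaki fragments, had 108.3 and 38.7 CPM. Of nucleotide supply, 4 of 15 were higher: Rrm2, the regulated subunit of ribonucleotide reductase, at 117.6 and 57.5 CPM, Tk1 at 248.2 and 106.4 CPM, Tyms and Umps. Exo1, a nuclease of DNA repair, had 98.9 CPM in d/d and 21.6 CPM in f/f, a log2 ratio of 2.19 (1.57 to 2.83).

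Histones followed, though not each of them. The list summed to 2581 CPM in d/d and 1575 CPM in f/f cycling cells, a log2 ratio of 0.71 (0.62 to 0.81), against -0.85 (-0.98 to -0.72) in non-cycling cells. Of 11 measured, 6 were higher and 2 lower, beside 11.6% and 14.1% over all genes. Hist1h2ae alone gave 1566 and 341.3 CPM, seen in 30 of 37 d/d and 74 of 176 f/f cells. The higher d/d sum rested on this gene, and the other members together summed lower in d/d than in f/f. Hist1h2ap went the other way at 294.9 and 762.8 CPM. How reads divide between such copies was not tested.

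In each of the 5 mitotic lists more members were lower in d/d than higher, as over all genes, of which 14.1% were lower and 11.6% higher with a median log2 ratio of -0.10. The list medians were -0.12 for kinases, near that value, -0.25 for kinetochores, -0.35 for the spindle, -0.27 for condensation and -0.52 for the anaphase promoting complex. The sums did not follow in every list: the spindle list summed to 7664 CPM in d/d and 7154 CPM in f/f, and the condensation list to 11366 and 10450 CPM, led by Tubb5 and Hmgb2. The 22 mitotic kinases and cyclins summed to 2445 CPM in d/d and 2423 CPM in f/f cycling cells, with 2 of 21 higher (Cdk1 and Pkmyt1) and 6 lower (Ccnb2, Ccna2, Bub1, Bub1b, Nek2 and Cdc25c). Bub1b, a kinase of the spindle checkpoint, had 48.5 and 114.3 CPM, a log2 ratio of -1.24 (-1.89 to -0.64), and was level in non-cycling cells. The kinetochore list had 3 of 23 higher and 4 lower, about the shares over all genes, and the spindle list 2 of 28 higher (Tubb5 and Tubb4b) and 6 lower (Kif11, Kif20a, Kif20b, Kif2c, Nusap1 and Ckap5). Kif20a, a kinesin of cytokinesis, had 84.0 and 166.1 CPM, and Ckap5, a microtubule polymerase, 82.1 and 197.4 CPM. Gas2l3, which links actin and microtubules at the midbody, was seen in 6 of 37 d/d and 90 of 176 f/f cells, with 24.3 and 129.7 CPM, a log2 ratio of -2.42 (-3.35 to -1.62). Cdc20 had 87.7 and 171.8 CPM, while Fbxo5, which holds the anaphase promoting complex inactive before mitosis, had 102.7 and 50.6 CPM. H2afx, the histone variant marked at DNA breaks and made also outside S phase, had 98.9 CPM in d/d and 311.7 CPM in f/f cycling cells.

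Depth can also set which cells are chosen. When cycling cells were chosen after thinning every cell to 3000 UMIs, 636 of 6207 genes were higher and 554 lower in d/d. The replication list then gave 7 of 35 higher and 1 lower, and the histones 6 of 11 higher and 2 lower. The mitotic kinases gave 4 of 21 higher and 3 lower, against 2 higher and 6 lower with cells chosen at full depth. Their split thus depended on how cells were chosen. The part of the cells' positions along the cycle, given above, in these differences was not tested.

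The list of CDK inhibitors and growth arrest genes was higher in d/d cells that also expressed mitotic genes. Of 13 measured, 9 were higher in d/d cycling cells and 2 lower (Cdkn1c and Gas1), beside 11.6% and 14.1% over all genes. Those called higher were mostly Btg, Gadd45 and Ccng genes. Among the CDK inhibitors, Cdkn1a and Cdkn2d were higher and Cdkn1c was lower. In non-cycling cells 7 of 11 were higher, beside 11.9% over all genes. Cdkn1a, the p21 inhibitor induced by p53, had 237 CPM (198 to 282) in d/d cycling cells, in 26 of 37 cells, and 25.6 CPM (18.7 to 34.3) in f/f cycling cells, in 28 of 176. The log2 ratio was 3.21 (2.71 to 3.74), beside 4.32 (4.12 to 4.52) in non-cycling stroma. Within d/d the level was within 1.5-fold between the groups, at 237 CPM in cycling and 267.3 CPM in non-cycling cells, and d/d cells with all 8 genes still had 240.2 CPM. In f/f it stood at 25.6 and 13.4 CPM. Cdkn1c, the p57 inhibitor, had 20.5 CPM in d/d and 51.8 CPM in f/f cycling cells, a log2 ratio of -1.33 (-2.39 to -0.43), from 11 UMIs in d/d.

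Gadd45g, a stress-induced regulator of growth arrest, had the highest ratio of that list, with 1432 CPM in d/d and 83.1 CPM in f/f cycling cells, a log2 ratio of 4.11 (3.85 to 4.37). Its non-cycling levels were 1200 CPM in d/d and 128.3 CPM in f/f, so d/d cycling cells stood at or above their neighbours and f/f cycling cells below theirs. Gadd45b had 123.2 and 11.95 CPM in d/d and f/f cycling cells, and Gadd45a 35.5 and 6.83 CPM. Of 13 p53 targets measured, 7 were higher in d/d cycling cells and 1 lower, beside 11.6% and 14.1% over all genes. Phlda3 stood at 162.4 and 73.4 CPM and Bax, the pore-forming killer protein, at 210.9 and 110.9 CPM. In non-cycling stroma 10 of 13 were higher and 1 lower, beside 11.9% and 14.5% over all genes. Gdf15, a stress cytokine, had 28 UMIs in 5 d/d cells and 0 in f/f, at least 30.6-fold higher against a floor of 3 UMIs over the group, and 75% of those UMIs came from 1 cell.

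Immediate early and heat shock genes, which tissue digestion can also induce, gave 17 of 19 higher and 0 lower in d/d cycling cells. In non-cycling cells 18 of 19 were higher. Over all genes the shares higher were 11.6% in cycling and 11.9% in non-cycling cells. Fos had 1362 CPM in d/d and 203.1 CPM in f/f cycling cells, against 1720 and 330.5 CPM in the non-cycling cells. Hspa1a, an inducible chaperone, had 1198 and 215 CPM, and Nr4a1 199.7 and 22.2 CPM. Cyr61, a matricellular growth factor, had 683.1 and 64.8 CPM, and Hes1, a Notch target that represses differentiation, 447.9 and 52.3 CPM. The part of handling in these values cannot be told apart from genotype, as each genotype was digested and loaded once. Interferon genes gave 5 of 11 higher, beside 11.6% over all genes, with Isg15 at 91.5 and 10.2 CPM. In non-cycling cells 5 of 10 were higher.

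Genes furthest below f/f in cycling cells, such as Rgs2, Lef1, Vit, Ctla2a and Ly6a, were also lower in non-cycling d/d stroma. Rgs2, which dampens G protein signalling, had 56.0 CPM in d/d and 586.5 CPM in f/f cycling cells, a log2 ratio of -3.39 (-3.96 to -2.87), beside -3.68 in non-cycling stroma. Lef1, a transcription factor of Wnt signalling, had 0 UMIs in the 37 d/d cycling cells and 139 UMIs in 61 of 176 f/f cells, at least 14.1-fold lower against the same floor. Vit, a matrix protein, had 2 UMIs in d/d and 255 in f/f cycling cells. Ctla2a, a cathepsin inhibitor, had 517 and 2372 CPM, and S100a6, calcyclin, 1213 and 4326 CPM. Ly6a, the surface antigen Sca-1, had 57.9 CPM in d/d and 373.2 CPM in f/f cycling cells, a log2 ratio of -2.69 (-3.26 to -2.17), against 132.8 and 365.3 CPM in non-cycling cells, -1.46 (-1.55 to -1.37). Marker pairs of 2 stromal states were measured in the cycling cells too. A2m and Itgbl1 summed to 209 CPM in d/d and 10.8 CPM in f/f. Of the other pair, Angptl7 had 41.1 and 175.2 CPM, while Hhip, a hedgehog inhibitor, had 50.4 and 38.1 CPM, from 27 and 67 UMIs, a log2 ratio of 0.40 (-0.30 to 1.07) that was not called.

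Of 25 growth factor and receptor genes, 13 were measured, with 3 higher and 2 lower in d/d cycling cells, beside 11.6% and 14.1% over all genes. Igf1 had 909 CPM in d/d and 1337 CPM in f/f cycling cells, within 1.5-fold, and Hgf, the ligand of Met, 31.7 and 77.9 CPM. Of 12 steroid receptor and cofactor genes measured, 0 were higher and 1 was lower, Fkbp4, the FKBP52 cochaperone of the progesterone receptor, at 85.9 and 167.2 CPM, and it was lower in non-cycling d/d cells as well, at 63.2 and 113.1 CPM. The Wnt list had 11 measured, 4 higher (Axin2, Nkd1, Dkk3 and Wnt5a) and 3 lower (Lef1, Sfrp4 and Ctnnb1), beside the same 11.6% and 14.1%. Non-cycling d/d stroma had 5 of 11 higher, among them Axin2, Dkk3 and Wnt5a, and 2 lower, Lef1 and Sfrp4. Most of these differences were thus not particular to cycling cells. Wnt5a had 494.6 and 286.7 CPM and Axin2, a feedback target of Wnt signalling, 69.1 and 30.2 CPM, while Sfrp4, a secreted Wnt antagonist, had 5.6 CPM in d/d and 59.7 CPM in f/f, and Ctnnb1, beta-catenin, 175.4 and 297.5 CPM.

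**Figure D5:**
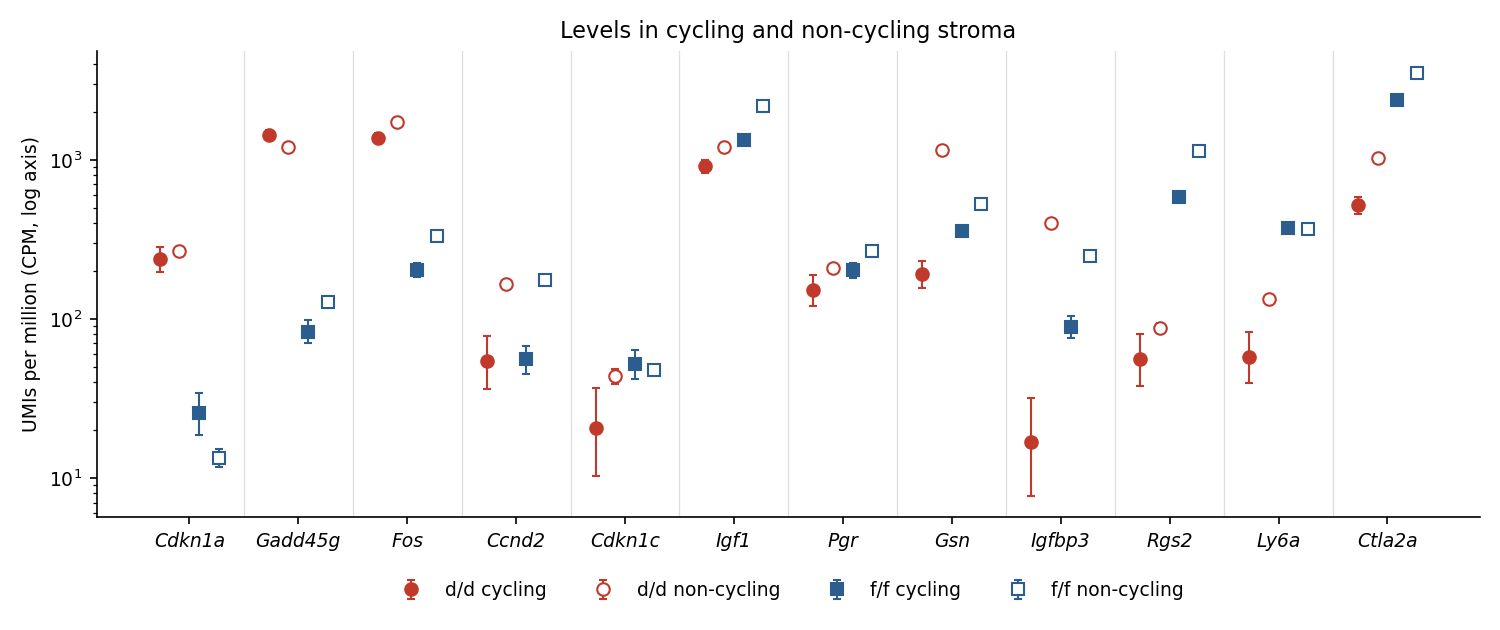
Levels in CPM, with exact Poisson intervals, of 12 genes in the 4 groups of stroma (d/d cycling, d/d non-cycling, f/f cycling, f/f non-cycling). Cdkn1a, Gadd45g and Fos are high in both d/d groups, Rgs2, Ly6a and Ctla2a in both f/f groups, and Ccnd2 is low in the cycling group of each library.

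Mettl3, the catalytic partner of Mettl14, had 5.6 CPM in d/d and 19.3 CPM in f/f cycling cells, from 3 and 34 UMIs. Of 15 measured genes that write, remove or read N6-methyladenosine, 2 were higher in d/d cycling cells (Wtap, the complex's scaffold, at 158.6 and 60.9 CPM, and Rbm15) and 3 lower (Zc3h13, Fto and Hnrnpa2b1), beside the 11.6% and 14.1% over all genes. Wtap and Rbm15 were also the 2 of 15 higher in non-cycling d/d stroma, where 0 were lower.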

How the data were processed

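Single cells of whole uterus were measured in 1 Mettl14 d/d and 1 Mettl14 f/f 10x 3' library. The deposited values are raw UMI counts per gene and barcode that the authors made with Cell Ranger and left without normalization: the submitters' processing notes name Cell Ranger 3.0.1 and mm10, and per the file headers the matrices came from cellranger 6.0.1, so which version made them is unclear. Barcodes with at least 1000 UMIs, 500 genes and at most 20% mitochondrial UMIs were kept. The libraries share 8 barcodes, 0 of them cycling. Doublets were not removed, and Scrublet (scanpy 1.11.5) at a fixed rate, an alternative, marked 1 d/d and 0 f/f cycling cells. UMIs were summed per group and divided by the group's total (CPM). Sums have exact Poisson, shares exact binomial (Clopper-Pearson) ratios of counts conditional exact, and ratios of shares log-scale intervals at 95%, for counting error only, as PCR copies are collapsed by UMI but cells are not replicates.

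The cells, the 38 gene lists and the genes named were chosen with earlier results of these data known. Genes given with values were the 8 markers, the 12 highest and 12 lowest measured genes per comparison by the interval bound nearest 1, regulators of division and of this tissue, and up to 4 per list by the same ranking, as far as they are described. Of the listed genes 1 was not found, and 36 gene IDs share a symbol with another. Alternatives were other limits on cells, markers, level and fold, thinning, TMM scaling (edgeR 4.0.16), other totals and doublet removal. The interval code was tested on simulated data. Python 3.11.15, numpy 2.4.6, pandas 2.3.3 and scipy 1.17.1 were used. Promoter windows are RefSeq's, on GRCm38.p6.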

Additional observations from a re-analysis of the deposited data

Results flagged for a closer look

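In 9 genes the ratio pointed one way in one setting and the other way in its counterpart, each past 1.5-fold with an interval that left out equality; with 1 library per genotype the difference between the paired ratios was not tested. Tgif1, a homeobox repressor, had a log2 ratio of cycling over non-cycling cells of 0.765 in d/d and -0.710 in f/f. The other 8 differed in the ratio of d/d to f/f between cycling and non-cycling stroma. Gsn stood at -0.897 in cycling and 1.124 in non-cycling cells, Igfbp3 at -2.411 and 0.683, and Timp3, an inhibitor of matrix proteases, at -0.682 and 0.607. Ncam1, a cell adhesion molecule, stood at -1.063 and 0.972, Ckb, a creatine kinase, at -0.938 and 0.587, and Man1a, a mannosidase of the Golgi, at -0.930 and 0.596. Gm42047, a predicted gene, stood at -1.058 and 0.952, with 12 UMIs in 4 d/d cycling cells. Cops3, a subunit of the COP9 signalosome, was the one higher in d/d cycling cells, at 0.692 against -0.677.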

How the results depend on the processing

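No paired analysis was possible because each genotype has 1 library, and none could be left out. The share of cycling cells was lower in d/d under each alternative tried on it, with ratios to f/f of 0.430 to 0.621 under the planned ones and 0.338 with no limit on other cell types' genes, where f/f stood at 6.86%. It moved to 6.28% in f/f at 3 of 8 genes and 4.10% at 5 of 8, and to 1.44% in d/d and 3.35% in f/f after thinning to 3000 UMIs. Counts of genes moved with the limits. At a mean of 50 CPM, 469 were higher and 357 lower in cycling than in non-cycling d/d cells, 321 and 168 in f/f, and 428 and 497 in d/d over f/f cycling cells. At 5 CPM f/f gave 1094 and 885. At a fold limit of 2 the counts were 483 and 300 in d/d, 345 and 67 in f/f, and 412 and 444 between genotypes. Totals without mitochondrial and ribosomal protein genes gave 818 lower in f/f, where more genes, 7691, were measured. Thinning gave 636 higher and 554 lower between genotypes. Of 4 alternatives chosen after seeing the data, non-cycling cells of matched depth gave 352 lower in d/d, and leaving out cells with more mitotic than replication UMIs gave 500 lower between genotypes, from fewer cells; that choice uses the lists' own UMIs, so nothing is read from it for cell cycle genes. Of the genes followed, 6 changed sign, and the cause was not tested: within d/d, Cxcl2 at 5 of 8 genes (-0.41), Rgs2 with each cell scaled alike (0.14), and C3 (0.17) and Cdkn1c (0.0017) at matched depth; between genotypes, Ccnb1 (0.23) and Kif20a (0.29) without mitotic-leaning cells. With 37 d/d cells, genes with few UMIs there rest on a handful of cells.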

Other observations

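Ribosome biogenesis genes, which growing cells need, were higher in cycling cells in 4 of 12 measured in d/d, beside 14.9% of all genes, and in 0 of 15 in f/f, beside 10.9%. Dkc1, the pseudouridine synthase of small nucleolar particles, had 84.0 CPM in d/d cycling and 34.7 CPM in d/d non-cycling cells, and 58.6 and 57.9 CPM in f/f. The ratio within each library was not tested against the other. Psmb8, an interferon-induced subunit of the immunoproteasome, had 112 against 49.9 CPM in d/d and 50.1 against 34.8 CPM in f/f. Hsd11b2, which inactivates glucocorticoids, was lower in f/f cycling cells, at 397.1 against 840.7 CPM, and had 328.5 against 484.4 CPM in d/d. Mt2, a metallothionein, was lower in cycling cells of both libraries and higher in d/d, at 95.2 and 15.4 CPM in d/d and f/f cycling cells, against 196.7 and 44.5 CPM in the non-cycling cells. Aldoa, a glycolytic aldolase, was lower in cycling cells of both, at 57.9 against 88.2 CPM in d/d and 39.8 against 108.6 CPM in f/f. Rxfp1, the relaxin receptor, had 7.47 CPM in d/d and 69.4 CPM in f/f cycling cells, against 33.96 and 120.7 CPM in non-cycling cells.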
